A study of Mus musculus with 904 samples.

Results

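The Pvalb interneuron nuclei were 81 of the 835 mouse brain nuclei kept here, a share of 9.70% (exact Clopper-Pearson 95% interval 7.78 to 11.9%, counting error only). They were chosen by measured reads: at least 20 CPM (read counts scaled to a sum of 1e6 per nucleus) of Gad1, at least 10 CPM of 2 or more of Pvalb, Kcns3, Lhx6, Cox6a2 and Syt2, and low Sst (under 100 CPM), Rgs9 (under 20), Slc17a7 (under 20) and Adarb2 (under 10). Of 904 nuclei, 835 were kept because they had at least 1000 genes and 10000 reads; the 69 left out held 0 nuclei that met the gate. The other 754 kept nuclei are the comparison.

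Parvalbumin interneurons are fast-spiking inhibitory neurons that reach cell bodies and proximal dendrites of their targets (basket cells) or the axon initial segment (chandelier cells). They arise in the medial ganglionic eminence, as Sst interneurons do, whereas Adarb2 marks interneurons of caudal origin. Kv3 potassium channels repolarise their action potentials quickly, a dense perineuronal net surrounds many of them, and their firing rate makes a high demand on mitochondria. Cells of this kind occur in cortex and in striatum.

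Each library came from 1 sorted nucleus of C57Bl/6J mice. All animals had received an AAV of the PHP.eB capsid. The DLX2.0 enhancer, active in GABAergic neurons of the forebrain, drives a fluorescent protein joined to histone H2B. The dose was 5e11 vg per mouse in young adulthood, and nuclei were sorted for the reporter 3 to 4 weeks later. The titles give 16 constructs. BORG, 3xBORG, U7snRNAOPT, 3xU7snRNAOPT, 3xsmOPT and U7snRNAOPT-3'box each stood before or after SYFP2-H2B, and the other constructs were DLX2.0-SYFP2-10aa-H2Bmod-BC, DLX2.0-SYFP2-P2A-3XFLAG-H2B with or without SIRLOIN, and DLX2.0-dTomato-H2B. No uninjected nuclei were among the samples analysed here, so every group carries a virus and a reporter. The titles name YFP-positive sorting also for the dTomato construct.

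The labels disagree with each other in several places. Each of the 16 title constructs covers 4 to 5 of the 16 vector identifiers in the treatment labels, so title and vector cannot both name what a nucleus received. The title construct was taken as the sample, and no label names an animal, so p-values reflect the spread among these sums alone, and that spread may be technical. Every nucleus is labelled as primary visual cortex, although the design text names 3 regions and 264 kept nuclei had at least 20 CPM of Rgs9, a transcript of striatal projection neurons. The region of a Pvalb nucleus therefore cannot be read from its label.

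Read depth was similar between members and the rest. The 81 members had 163045 to 422061 reads (median 244376) and the other kept nuclei a median of 261983. No 2 nuclei had identical counts. The median number of genes detected per member was higher than in the other nuclei: averaged over 12 constructs it was 3507 ± 583 (SD) against 2783 ± 287, a difference of 725 genes seen in 11 of 12 constructs (exact two-sided permutation p = 0.002441, Benjamini-Hochberg adjusted p = 0.0132 over the 9 depth comparisons). After every nucleus was thinned to 30000 reads the difference was 561 genes (adjusted p = 0.0132). Against the interneuron classes compared below, each over 7 constructs, the difference did not pass. It was 503 genes against the Sst nuclei (exact permutation adjusted p = 0.169). Against the Adarb2 nuclei it was -312 (adjusted p = 0.797). Reads per nucleus differed by -3620 (exact permutation p = 0.728).

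The gate genes are described and not tested, since they chose the members. Pvalb, the calcium-binding protein of the name, was at or above 10 CPM in 73 members (90.1%), with a median of 541 CPM and a highest value of 2422. Cox6a2, a muscle-type cytochrome oxidase subunit, reached that level in 53, Kcns3, a silent Kv2 partner subunit, in 48, Syt2, the fast release calcium sensor, in 43, and Lhx6, the transcription factor of the medial lineage, in 33. The name rests on these gate genes, so their counts do not test it. No Pvalb read was found in 8 members, which entered on the other markers. Of the 5 markers, 29 members had 2, 24 had 3, 20 had 4 and 8 had all 5.

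Summed over a construct, the members' Pvalb ran from 277 through a median of 648 to 996 CPM, against 0, 25.02 and 74.97 CPM in the other nuclei. Cox6a2 had 84.98, 154 and 443 CPM against 3.06, 10.3 and 51.01, and Syt2 had 16.2, 107 and 317 against 2.83, 7.66 and 27.5. The lowest member sum of Syt2 lay under the highest sum of the other nuclei, and Kcns3 and Lhx6 were at 0 in at least 1 construct of the members, so for these 3 markers the groups overlapped. The member with the least Gad1 had 52.6 CPM and the nearest nucleus that missed on Gad1 alone had 15.9. For Sst these values were 87.8 and 102, for Slc17a7 4.42 and 24.4, for Adarb2 0 and 140, and for Rgs9 0 and 1606. The marker count was the criterion on which most near misses fell: 39 nuclei failed on it alone, 21 of them with 1 marker, while 21 failed on Sst alone and 8 on Adarb2 alone.

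**Figure D1:**
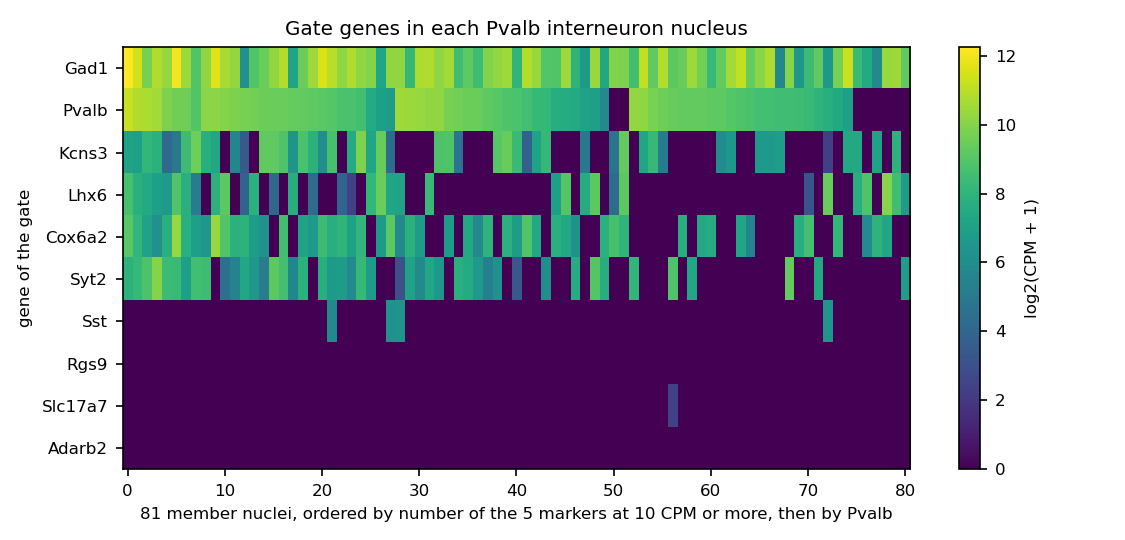
Heat map of the 10 gate genes (rows) in the 81 Pvalb interneuron nuclei (columns), coloured by log2(CPM + 1). Pvalb has reads in 73 columns, whereas Lhx6 reaches 10 CPM in 33, and the exclusion genes are empty in nearly all.

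The comparison asked for was the members against all other kept nuclei, a mixture of striatal projection neurons, excitatory neurons, other interneurons and glia. The nuclei of each side were summed per construct in the 12 constructs with at least 3 members (75 members and 583 others), and 11067 genes were tested with edgeR with construct as a block. Genes higher in the members included those for Kv3 channels, the ErbB4 receptor, complexin 1 and some GABA-A subunits, whereas markers of the other cell types were lower. In all, 98 genes (0.886%) were higher and 1396 (12.6%) were lower at an adjusted p under 0.05. For 20 genes (0.181%) every construct of the members lay above every sum of the other nuclei.

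The excess of lower genes changed with the number of nuclei on each side. The median log2 difference over all genes was -1.21, with 3 to 13 members in a sum. With equal numbers of nuclei on each side of a construct, an alternative added after seeing the data, 7349 genes could be tested and the median was 0.39. Then 16 genes were higher and 19 lower, so the higher share of the calls was 45.7% in place of 6.56%. Of these 35, 32 were also called with all nuclei. Without the library-name group S40327 (an identifier within the library names, which also occur as S40317 and S40325), 4 genes were higher and 46 lower, and without S40317 or S40325 the totals were 574 and 516. In this comparison a gene called lower is therefore given below with its equal-number result. Where none is given, the gene did not pass the read filter of that fit.

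Among the Kv3 and Kv1 potassium channel genes, 3 of 13 tested were higher and 2 were lower, with a list median of 0.01 against -1.21 over all genes. Kcnc1 encodes Kv3.1, the channel that lets these cells fire fast. It had 561, 1074 and 1762 CPM (lowest, median and highest construct) in the members and 50.0, 182 and 306 in the other nuclei. The groups did not overlap. Its log2 difference was 2.43 ± 0.23 (SE, n = 12 constructs, edgeR adjusted p = 5.6e-07), and it was 3.12 with equal numbers of nuclei (adjusted p = 0.0088). In single nuclei Kcnc1 reached 10 CPM in 80 of 81 members, a broader detection than that of Pvalb itself.

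Kcnc2, which encodes Kv3.2, had 232, 378 and 702 CPM against 44.1, 107 and 172, again with no overlap, and differed by 1.82 ± 0.30 (edgeR adjusted p = 2.57e-04). Its value was 0.43 within S40327 and 1.88 within S40325, and with equal numbers its adjusted p was 0.056. Kcnab3, a beta subunit of Kv1 channels, was 2.10 ± 0.50 higher (adjusted p = 0.0063, and 0.090 with equal numbers). Kcna4, the A-type Kv1.4, was at 0 in 10 of 12 constructs of the members. Its summed CPM was 5.86-fold lower in the members.

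Voltage-gated sodium channels moved in both directions. Scn1a encodes Nav1.1, the main axonal sodium channel of these interneurons. It had 389, 771 and 1244 CPM against 186, 393 and 594, a difference of 0.77 ± 0.24 (edgeR adjusted p = 0.037), higher in 11 of 12 constructs but with overlapping groups. The call was lost with equal numbers (1.19, adjusted p = 0.44), and the difference was -0.06 within S40327. Scn2a, which encodes the Nav1.2 typical of excitatory axons, had 28.99, 179 and 350 CPM against 255, 371 and 484 and was lower by -1.34 ± 0.29 (adjusted p = 0.0029, 0.53 with equal numbers). Scn3a, the embryonic Nav1.3, was lower by -3.19 ± 0.67 (0.0025, 0.091 with equal numbers). Of 11 genes in the list, 1 was higher and 5 lower, and the median of -1.34 was close to that of all genes.

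A long noncoding gene antisense to a sodium channel gene separated the groups as fully as Kcnc1. Gm13629, singled out after its values were seen, had 278, 456 and 668 CPM in the members and 20.5, 43.5 and 108 in the other nuclei. The difference was 3.02 ± 0.28 (edgeR adjusted p = 4.35e-07, 0.091 with equal numbers). In GENCODE M21 on mm10 it lies at chr2:66440880-66546026 on the plus strand, and it starts 40 bases past the 5' end of Scn1a, which is read from the minus strand. It overlaps Scn9a (chr2:66480080-66634962, minus strand). Whether the counting used strand is not stated, so its reads and those of Scn9a cannot be told apart.

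In the release machinery 1 of 25 genes tested was higher and 7 were lower (median -0.99). Cplx1, the complexin of fast synchronous release, was the higher one. It had 319, 566 and 1420 CPM against 63.95, 171 and 345, higher in all 12 constructs, with a difference of 1.71 ± 0.25 (edgeR adjusted p = 1.03e-04) and 0.083 as adjusted p with equal numbers. Cacna1e, the R-type calcium channel, went the other way and kept its call with equal numbers. Its members' sums were 0, 0.51 and 28.3 CPM against 96.6, 268 and 506, so summed CPM was 41.6-fold lower (adjusted p = 2.28e-06, and 1.62e-04 with equal numbers). Unc13c, a Munc13 priming protein, had no read in any construct of the members. That makes it at least 1695-fold lower, against the floor of 3 reads over all the members. Such bounds, here and below, cover counting error only and leave out the spread among nuclei. Unc13c passed the read filter through the other nuclei alone, which fixed its sign.

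Of 10 calcium handling genes other than Pvalb, 0 were higher, where 0.886% of all genes were, and 4 were lower, where 12.6% of all genes were. The list median was -2.13 against -1.21 over all genes. With equal numbers 0 of 7 passed in either direction, and the median was 0.14 against 0.39. Atp2b1, a plasma membrane calcium pump, had 123, 511 and 1150 CPM against 835, 1402 and 2654. Its difference was -1.85 ± 0.25 (edgeR adjusted p = 4.21e-05, 0.19 with equal numbers). Necab1, an EF-hand calcium-binding protein, was 2.35-fold lower in summed CPM, and Slc8a2, a sodium-calcium exchanger, 21.8-fold lower from 15 reads in the members.

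Among the GABA synthesis and transport genes, Gad2, which encodes the second GABA synthesis enzyme, did not pass the test: it had 93.04, 235 and 1299 CPM against 129, 283 and 752 (-0.62 ± 0.26, edgeR adjusted p = 0.12, and 0.69 with equal numbers). Slc38a1, a glutamine transporter of GABA cells, had 0.38 ± 0.30 (adjusted p = 0.41).

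**Figure D2:**
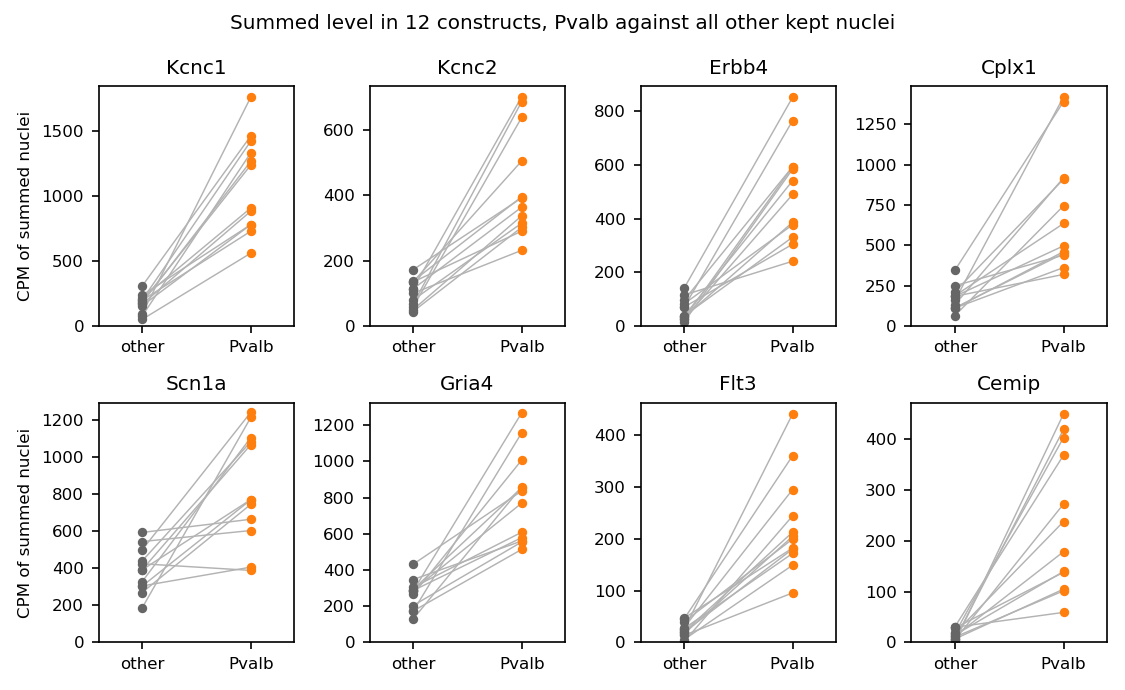
CPM of summed nuclei for 8 genes, 1 panel a gene, with a line for each of the 12 constructs joining the Pvalb interneuron nuclei and all other kept nuclei. The 12 lines of Kcnc1 fall from between 561 and 1762 CPM in the members to between 50.0 and 306 CPM in the other nuclei.

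Of the GABA-A receptor subunit genes 4 of 12 were higher, against 0.886% of all genes, and 3 were lower. Gabrd, the extrasynaptic delta subunit, had 119, 395 and 569 CPM against 63.5, 131 and 253 (1.09 ± 0.31, edgeR adjusted p = 0.021, 0.95 with equal numbers). Gabrg3, a gamma subunit, had 201, 337 and 690 CPM against 66.8, 127 and 186, with no overlap, and differed by 1.18 ± 0.28 (adjusted p = 0.0068, 0.67 with equal numbers). Gabrg1 had 3 reads in all members, a ratio of 0.0040 to the other nuclei with a counting interval of 0.00083 to 0.012. With equal numbers 0 of 10 subunits passed, and their median was 0.71 against 0.39 over all genes.

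Of 21 glutamate receptor genes 1 was higher and 6 were lower. The higher one was Gria4, the GluA4 subunit that gives AMPA receptors fast kinetics. It had 514, 803 and 1268 CPM against 128, 285 and 431, with no overlap, and differed by 1.29 ± 0.23 (edgeR adjusted p = 5.96e-04, 0.17 with equal numbers). Grin3a, an NMDA subunit found in Sst cells, was 8.68-fold lower in summed CPM, and Grm8, a presynaptic glutamate receptor, 65.02-fold lower from 9 reads in the members.

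Among synaptic adhesion genes, 4 of 19 were higher and 3 lower (median -0.06). Erbb4 is the neuregulin receptor through which Pvalb cells gain excitatory synapses. It had 241, 516 and 852 CPM against 13.8, 53.02 and 140, with no overlap between groups. Its difference was 2.95 ± 0.37 (edgeR adjusted p = 1.36e-05) and held with equal numbers (7.32, adjusted p = 0.0028). Cntnap4, a contactin-associated protein of interneuron synapses, was 2.94 ± 0.46 higher without overlap (adjusted p = 2.06e-04, 0.14 with equal numbers). Il1rapl2, a synapse organiser, was 3.08 ± 0.73 higher (0.0062, and 0.0088 with equal numbers), though 0.01 within S40317. Cntnap3 passed at 1.79 ± 0.59 (0.046) and was -0.08 within S40325. Ptprd, a receptor phosphatase, was lower, with 100.02, 282 and 870 CPM against 524, 806 and 1293 (-1.78 ± 0.24, adjusted p = 4.22e-05, 0.23 with equal numbers).

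Of 14 interneuron transcription factors tested 2 were higher, Mef2c (0.94 ± 0.23, edgeR adjusted p = 0.0081) and Maf (1.29 ± 0.35, adjusted p = 0.017), and 0 were lower. Both act in the maturation of medial interneurons. Mef2c had 583, 898 and 1453 CPM against 194, 385 and 1071, and Maf had 63.2, 259 and 569 against 30.7, 82.2 and 221, so both overlapped, and neither passed with equal numbers (adjusted p = 0.078 and 0.089). The perineuronal net genes split. Hapln4, a link protein of the net, was 2.40 ± 0.61 higher (0.0097, 0.078 with equal numbers), with 41.1, 155 and 380 CPM against 4.25, 23.004 and 77.4. Ncan, a proteoglycan that glia also make, was 4.50-fold lower in summed CPM, and Ptprz1 2.94-fold lower. With equal numbers Ptprz1 was at 0.76, on the other side of 0, and within S40325 Ncan was at 0.22.

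Of 23 nuclear genes of oxidative metabolism 0 were higher and 1 was lower, against 0.886% and 12.6% of all genes. Their median was -0.06 against -1.21 over all genes, and 0.79 against 0.39 with equal numbers, where 0 of 21 passed. Against the Sst nuclei compared below, 19 of the 23 had estimates above 0, the median was 0.76 against 0.39 over all genes, and 0 passed. Ppargc1a, the PGC-1alpha coactivator of mitochondrial genes, had 30.7, 156 and 317 CPM against 19.95, 55.3 and 81.5, higher in 11 of 12 constructs, and missed the threshold (1.18 ± 0.42, edgeR adjusted p = 0.068). Cox4i1, a cytochrome oxidase subunit, was lower by -0.89 ± 0.30 (0.049, 0.97 with equal numbers). Atp5b, the beta subunit of ATP synthase, had 809 CPM in the median construct against 848 (-0.38 ± 0.16, adjusted p = 0.12), and its estimate changed sign with equal numbers. Of the 4 neurofilament genes 0 passed, and Nefm had -3.002 ± 1.23 (adjusted p = 0.11).

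**Figure D3:**
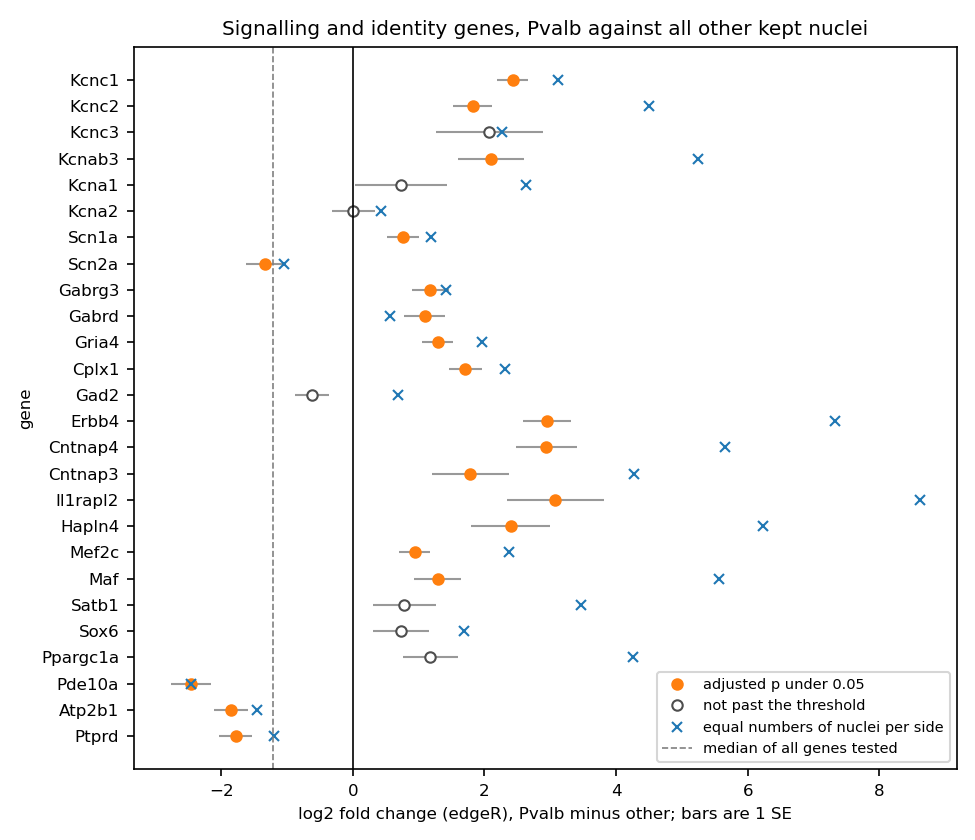
Log2 difference of 26 genes between the Pvalb interneuron nuclei and all other kept nuclei, with bars of 1 SE over 12 constructs, filled points for an edgeR adjusted p under 0.05, and crosses for equal numbers of nuclei. The dashed line is the median of all genes, -1.21, and Kcnc1 (2.43) and Erbb4 (2.95) lie far to its right.

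The genes with the highest fold differences, among those with at least 20 CPM, included a receptor kinase, matrix genes and a peptide precursor. Flt3, a receptor tyrosine kinase, had 95.7, 202 and 442 CPM against 1.02, 22.5 and 46.7, without overlap (3.14 ± 0.49, edgeR adjusted p = 1.73e-04, 0.056 with equal numbers). Cemip, a hyaluronan-binding protein, had 59.1, 209 and 450 CPM against 0.40, 13.4 and 30.8, without overlap (3.80 ± 0.61, adjusted p = 2.40e-04, 0.018 with equal numbers). Prss23, a secreted protease, was 3.24 ± 0.57 higher and Btbd11 3.27 ± 0.69 higher, and neither passed with equal numbers (0.16 and 0.078). Eya4, a phosphatase and transcriptional coactivator, kept its call (3.28 ± 0.97, adjusted p = 0.027, and 0.015 with equal numbers). Adamts15, a matrix protease, was 22.97-fold higher in summed CPM, Mybpc1 18.5-fold and Adm, the precursor of adrenomedullin, 12.5-fold. Adamts15 and Adm also passed with equal numbers (0.033 and 0.0028), and Mybpc1 did not (0.056).

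Among the genes lower in the members were the markers of the cells that make up the rest. All 5 of the other interneuron markers tested were lower, 5 of 7 striatal projection neuron markers, 5 of 6 excitatory neuron markers, 3 of 3 astrocyte markers and 4 of 4 oligodendrocyte markers, where 12.6% of all genes were lower. With equal numbers 1 of 4 interneuron markers and 3 of 6 striatal markers were lower, while 1 excitatory, 1 astrocyte and 1 oligodendrocyte marker could be tested and 0 of these passed (the excitatory value was 4.49). Since low Rgs9, Slc17a7, Sst and Adarb2 chose the members, the neuronal classes were removed from one side by the gate. It held no glial gene, and glia could miss it only on Gad1 and the 5 markers. Gja1, with a read in 1 of 81 members, passed the read filter through the other nuclei. These counts therefore describe the make-up of both sides and are no independent test of the members. Pde10a, a striatal phosphodiesterase, had 37.2, 204 and 325 CPM in the members against 231, 834 and 1684 (-2.46 ± 0.30, edgeR adjusted p = 1.09e-05, and 0.0079 with equal numbers). Ppp1r1b, which encodes DARPP-32, was 29.2-fold lower in summed CPM and also kept its call with equal numbers (3.55e-04).

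Of 10 neuropeptide and peptide receptor genes 0 were higher and 5 lower, against 0.886% and 12.6% of all genes. With equal numbers 1 of 7 was lower, and the median was -0.33. Npy had 0, 103 and 516 CPM in the members against 380, 1691 and 6583, a 14.4-fold lower sum, and with equal numbers it did not pass (adjusted p = 0.65). Penk, the enkephalin precursor of striatum, was 31.4-fold lower (0.0028 with equal numbers), and Pdyn 8.18-fold. Lamp5, a marker of caudal interneurons, was 14.9-fold lower (0.014), Reln 9.80-fold (0.36) and Nos1 10.2-fold. Gja1, the astrocyte connexin, had 2 reads in the members, a ratio of 0.00053 (counting interval 0.000064 to 0.0019). Slc1a2, the astrocyte glutamate transporter, was 33.6-fold lower (edgeR adjusted p = 0.51 with equal numbers) and Mag, a myelin protein, 12.4-fold.

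All 11 activity-regulated genes tested were lower, against 12.6% of all genes. Arc, a synaptic immediate early gene, had 164 reads in the members and a 16.03-fold lower sum. Its values were 0, 0 and 40.8 CPM against 54.03, 140 and 212. Egr3 had 2 reads, a ratio of 0.0027 (counting interval 0.00033 to 0.0099), and Bdnf was 38.6-fold lower from 14 reads. With so few reads in the members, Egr3 and Bdnf passed the read filter through the other nuclei, which left little room for a higher value. With equal numbers 4 genes of this list could be tested and 0 passed, and the other 7 no longer passed the read filter. Against the Sst nuclei compared below 2 genes could be tested (median -1.05), and against the Adarb2 nuclei 3 (median -0.06). In both, 0 passed.

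Several other genes had no read in any of the members summed. Ntsr2, a neurotensin receptor of astrocytes, was at least 2723-fold lower, Baiap2, a postsynaptic scaffold protein, at least 2029-fold, and Pde4b, a phosphodiesterase, at least 861-fold. The bounds were 778-fold for Coch, 604-fold for Jcad, 559-fold for Col6a1, 551-fold for Itpka, an inositol trisphosphate kinase of excitatory spines, 492-fold for Rprml and 420-fold for Car4. None of these 9 passed the read filter with equal numbers, so no value without the size difference can be given.

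Reads of genes listed as markers of other cell types were present in members, and the level differed between lists. Summed over the astrocyte list, 3 of 6 genes had any read (Aqp4, Gfap and Aldh1l1 were at 0 in all members), the median was 0 CPM, the highest member 1061, and 11 of 81 members reached 100 CPM. The oligodendrocyte list had reads for 5 of 7 genes, a median of 0, a highest member of 11550 CPM and 22 members at 100 CPM or more. The striatal projection neuron list had 7 of 10 genes with reads, a median of 403 CPM, a highest value of 2847 and 67 members at 100 CPM or more. Its median was 8301 CPM in the striatal projection nuclei, 223 in the Sst nuclei and 299 in the Adarb2 nuclei. This list holds Tac1, also a subtype marker below, and Pde10a, at 10 CPM or more in 61 members. Its reads are therefore not shown to come from another cell type. Drd2 and Adora2a were at 0 in all members, which, at 3 counts of 81, allows a share of members with a read of up to 3.70% and sets no limit on expression, while Drd1 reached 10 CPM in 16. The excitatory list had a median of 2.89 CPM, with Slc17a6 and Neurod1 among the genes at 0. The part of such reads in the differences above was not tested.

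Subtype markers divided the members only loosely. Tac1, the tachykinin precursor, reached 10 CPM in 31 of 81 members (38.3%, exact Clopper-Pearson interval 27.7 to 49.7%) and had a median of 796 CPM where it was detected. Calb1, the calbindin gene, did so in 16, and Pthlh, a secreted hormone-like peptide reported in striatal Pvalb cells, in 14. Sema3e, a guidance ligand, was also found in 14. In Reln there were 7, in Akr1c18 6, in Unc5b, Gpr149, Itm2a and Th 4 each, and in Ntf3 and Tpbg 3 each. Vipr2, the peptide receptor that marks chandelier cells, was seen in 1 member, at 949 CPM, and Kank4 in 1. Gabrg1 and Islr reached 10 CPM in 0 of 81, which allows a share of members at that level of up to 3.70%. Because a nucleus gives 2274 to 5899 genes, an absent marker is not shown to be unexpressed.

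The markers overlapped. Of the 81 members, 18 had none of the 16 markers, 25 had 1 and 38 had 2 or more. Tac1 and Calb1 were together in 10 members and Tac1 and Pthlh in 7. Nkx2-1, a transcription factor retained by striatal interneurons of medial origin, reached 10 CPM in 4 members, and 3 of these also had Pthlh. The members with 12.3, 236 and 364 CPM of Nkx2-1 had no Pvalb read, and the one with 135 CPM had 125 CPM of Pvalb. Th was at 4151 and 1351 CPM in members with no Pvalb read, and at 970 and 565 CPM in members with Pvalb. The name of members with no Pvalb read rests on the other gate markers. Tac1 and Nkx2-1 were together in 0. Pthlh was found in 0 of the 15 members from S40317, in 6 of the 29 from S40325 and in 8 of the 37 from S40327, and Tac1 in 5, 16 and 10. These groups hold different constructs and were not compared by a test.

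**Figure D4:**
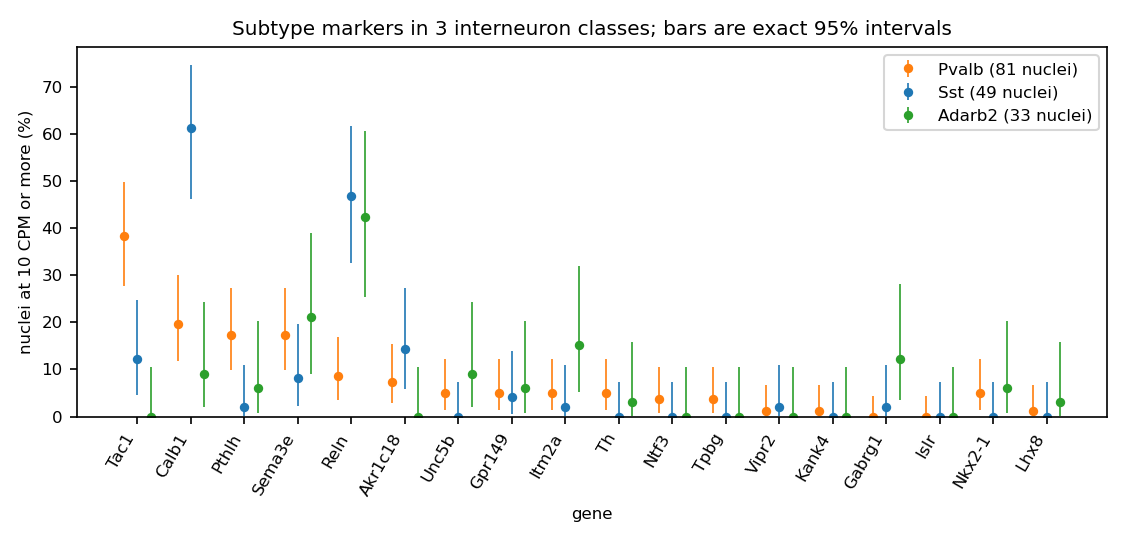
Percent of nuclei with at least 10 CPM of 18 subtype genes in the Pvalb (81), Sst (49) and Adarb2 (33) interneuron nuclei. Tac1 reaches 38.3% of the Pvalb nuclei, and Vipr2 1.23%.

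Sst interneurons are the closest class, and the members were compared with the 49 Sst nuclei that lack Nos1 and Chodl (Gad1 at least 20 CPM and Sst at least 100 CPM). Few genes separated them at the threshold. The Sst gate did not exclude the Pvalb markers, and 21 kept nuclei missed the Pvalb gate on Sst alone. How many of these are among the 49 was not counted. In the 7 constructs with at least 3 nuclei on each side (42 members and 30 Sst nuclei) edgeR called 1 of 6606 genes higher (0.0151%) and 5 lower (0.0757%), with a median difference of 0.39. Without an adjustment 295 genes had p under 0.05. DESeq2 on the same sums called 272 higher and 105 lower. Without S40327, which leaves 2 constructs, edgeR called 1 gene, and 0 of the 6 main calls were kept. Without S40325 it called 13, which held 5 of the 6. Leaving out the construct DLX2.0-SYFP2-P2A-3XFLAG-H2B gave 11, which held all 6.

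Serpini1, the neuroserpin gene, separated the classes with reads on both sides. It had 242, 333 and 1100 CPM in the Pvalb nuclei against 1370, 3346 and 5128 in the Sst nuclei, with no overlap, and differed by -2.82 ± 0.31 (edgeR adjusted p = 3.87e-05, n = 7 constructs; 2.10e-05 with equal numbers). Synpr, the synaptic vesicle protein synaptoporin, had 0, 0 and 14.6 CPM against 223, 787 and 1290 and a 139-fold lower sum (adjusted p = 3.87e-05). Grin3a was 467-fold lower from 9 reads and Cacna2d3, a calcium channel auxiliary subunit, 169-fold lower (both 1.48e-04). Lama4, a laminin chain, had no read in the Pvalb nuclei and, by the floor of 3 reads, was at least 700-fold lower (0.030). It passed the read filter through the Sst nuclei alone, which fixed its sign. These 5 calls held with equal numbers of nuclei, and none of them held without S40327. Those of Serpini1, Synpr, Grin3a and Cacna2d3 also held when each of the 7 constructs was left out in turn, and that of Lama4 was lost in 3 of the 7, without DLX2.0-3xsmOPT-SYFP2-H2B-BC, DLX2.0-SYFP2-H2B-3xU7snRNAOPT-BC or the construct with U7snRNAOPT-3'box after SYFP2-H2B (highest adjusted p = 0.0857).

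Trps1, a zinc finger repressor, was the 1 gene higher in the Pvalb nuclei. It had 56.6, 161 and 675 CPM against 0, 0 and 8.16, from 13 reads in the Sst nuclei, and its summed CPM was 137-fold higher (edgeR adjusted p = 0.040). The groups did not overlap, but the call was lost with equal numbers (0.12). It was also lost without 5 of the 7 constructs in turn and held without DLX2.0-3xsmOPT-SYFP2-H2B-BC or DLX2.0-SYFP2-P2A-3XFLAG-H2B. The highest adjusted p was 0.595, without DLX2.0-SYFP2-H2B-U7snRNAOPT-BC.

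All 9 Kv3 and Kv1 genes tested against the Sst nuclei had positive estimates, with a median of 0.84 against 0.39 over all genes, and 0 passed. Of 6 sodium channel genes 4 had positive estimates and 0 passed. Kcnc1 had 780, 1333 and 1762 CPM against 248, 412 and 970 (1.44 ± 0.36, edgeR adjusted p = 0.27), higher in 7 of 7 constructs. Kcnc2 had 1.69 ± 0.70 (adjusted p = 0.999) and was higher in 4 of 7. Bcan, a proteoglycan of the perineuronal net, had 85.7, 300.1 and 452 CPM against 0, 2.79 and 68.6 (adjusted p = 0.27), without overlap. Erbb4 had 241, 377 and 594 CPM against 0, 4.98 and 275 (0.31), and Hapln4 57.5, 156 and 380 against 0, 0 and 57.99 (0.34).

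Peptide and calcium-binding genes known from Sst cells had negative estimates, also short of the threshold. Npy had 0, 84.01 and 516 CPM against 462, 658 and 2932 (edgeR adjusted p = 0.31), Calb1 0, 159 and 398 against 213, 586 and 1853 (0.73), and Crhbp, a binding protein for corticotropin-releasing hormone, 0, 114 and 237 against 190, 752 and 1428 (0.77). Tac1 had the opposite sign, with 0, 490 and 684 CPM against 0, 0 and 478 (0.64). Mef2c had 615, 1046 and 1453 CPM against 226, 617 and 1310 (0.80 ± 0.35, adjusted p = 0.999).

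Adarb2 interneurons, of caudal origin, were the second class compared. The 33 Adarb2 nuclei had Gad1 of at least 20 CPM, Adarb2 of at least 10 CPM and low Lhx6, Sst, Rgs9 and Slc17a7. In 7 constructs (46 members and 26 Adarb2 nuclei) edgeR called 17 of 7353 genes higher (0.231%) and 15 lower (0.204%), with a median difference of 0.51 and 417 genes with an unadjusted p under 0.05. DESeq2 called 447 higher and 140 lower. With equal numbers 8 were higher and 13 lower, so 21 in all in place of 32. Leaving out 1 construct left 9 calls without DLX2.0-SYFP2-H2B-3xU7snRNAOPT-BC, 13 without the one with U7snRNAOPT-3'box before SYFP2-H2B, 17 without DLX2.0-BORG-SYFP2-H2B-BC, 19 without DLX2.0-3xBORG-SYFP2-H2B-BC or DLX2.0-SYFP2-P2A-3XFLAG-H2B-SIRLOIN, and 21 without DLX2.0-SYFP2-P2A-3XFLAG-H2B. Without S40317 there were 7 and without S40327 6. Without S40325 there were 35, 14 higher and 21 lower, of which 16 were among the 32, and the median difference was -0.0065. With the vector identifier as the sample there were 11. Reads per nucleus differed by a mean of -49140, lower in the Pvalb nuclei (exact permutation p = 0.03125, adjusted p = 0.0938).

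The genes higher in the Pvalb nuclei included 3 with no read in the Adarb2 nuclei. These 3 passed the read filter through the Pvalb nuclei alone, so their sign was fixed and their p-values are no independent support. Their bounds use the floor of 3 reads and leave out the spread among nuclei. Il1rapl2 had 34.5, 180 and 595 CPM and was at least 600-fold higher (edgeR adjusted p = 0.0019, n = 7 constructs). Nek7, a kinase of mitosis and of the inflammasome, was at least 504-fold higher (0.011) and Prss23 at least 353-fold (0.040). With equal numbers Nek7 passed (0.032), whereas Il1rapl2 and Prss23 did not pass the read filter. Kcnip2, a partner of A-type Kv4 channels, had 116, 250.4 and 496 CPM against 0, 0 and 55.6, a 38.2-fold higher sum (0.0019). Cdh7, a cadherin, had 50.96, 135 and 303 CPM against 0, 0 and 22.9 (0.029, 0.16 with equal numbers). Satb1, a chromatin organiser of medial interneurons, had 125, 302 and 392 CPM against 0, 0 and 43.6, a 29.9-fold higher sum (0.024), and did not pass with equal numbers (0.52). When each construct was left out in turn, Cdh7 and Prss23 lost their calls in all 7 cases (highest adjusted p 0.133 and 0.147), Satb1 in 5 and Nek7 in 1 (0.0641, without DLX2.0-SYFP2-H2B-3xU7snRNAOPT-BC), while Il1rapl2 and Kcnip2 kept theirs.

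Of the 4 other interneuron markers tested 3 were lower, namely Npy, Lamp5 and Reln. Npy had 0, 84.01 and 170 CPM in the Pvalb nuclei against 698, 4820 and 31280 in the Adarb2 nuclei, a 103-fold lower sum (edgeR adjusted p = 0.0019, and 1.99e-08 with equal numbers). Lamp5 had 0, 0 and 138 CPM against 246, 594 and 904 (34.5-fold lower, adjusted p = 0.0097), and Reln 0, 0 and 63.6 against 77.6, 361 and 1773 (48.03-fold lower, 0.0019). Sorcs3, a sorting receptor, was 311-fold lower from 9 reads and Cacna2d1, a calcium channel subunit, 31.4-fold. By the floor of 3 reads, Cpne7 was at least 1358-fold lower, Car4, a carbonic anhydrase, at least 756-fold and Pde4b at least 713-fold. Each had no read in the Pvalb nuclei and passed the read filter through the Adarb2 nuclei alone, which fixed its sign. With equal numbers Cpne7 (0.0025) and Pde4b (0.044) passed, and Car4 did not pass the read filter. With 1 construct left out in turn, Npy, Reln, Sorcs3 and Cpne7 kept their calls, whereas Lamp5 and Car4 lost them in 2 of 7 cases, Pde4b in 4 and Cacna2d1 in 5 (highest adjusted p 0.0761, 0.15, 0.156 and 0.158).

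All 9 Kv3 and Kv1 genes tested had positive estimates against the Adarb2 nuclei (median 2.21 against 0.51 over all genes), and 0 passed. Estimates were also positive for 14 of 15 glutamate receptor genes, 8 of 11 GABA-A subunits and 5 of 9 sodium channel genes, with 0 passing, and for 8 of 12 interneuron transcription factors, of which Satb1 passed. Kcnc2 had 232, 364 and 702 CPM against 0, 14.9 and 225, without overlap (edgeR adjusted p = 0.064). Kcnc1 had 730, 1268 and 1762 CPM against 127, 484 and 742 (1.81 ± 0.44, adjusted p = 0.093), Scn1a 389, 1069 and 1216 against 89.2, 350 and 783 (0.21), and Gria1 173, 471 and 576 against 5.89, 107 and 241 (0.24). Sox6, a medial lineage factor, had 26.9, 151 and 263 CPM against 0, 0 and 79.4 (0.29). Gad2 had the opposite sign, 167, 322 and 1299 CPM against 342, 1273 and 4006 (-1.76 ± 0.43, 0.098), and passed with equal numbers (0.047).

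The constructs gave different shares of Pvalb nuclei among their kept nuclei, from 2.13% to 19.5% (median 9.41%, SD 5.87, n = 16 constructs). Vector identifiers gave 2.33% to 26.1%. By library-name group the shares were 14.2% (15 of 106) in S40317, 7.90% (29 of 367) in S40325 and 10.2% (37 of 362) in S40327. Since animals and dissections are not labelled, a difference between constructs and one between animals or regions cannot be told apart.

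**Figure D5:**
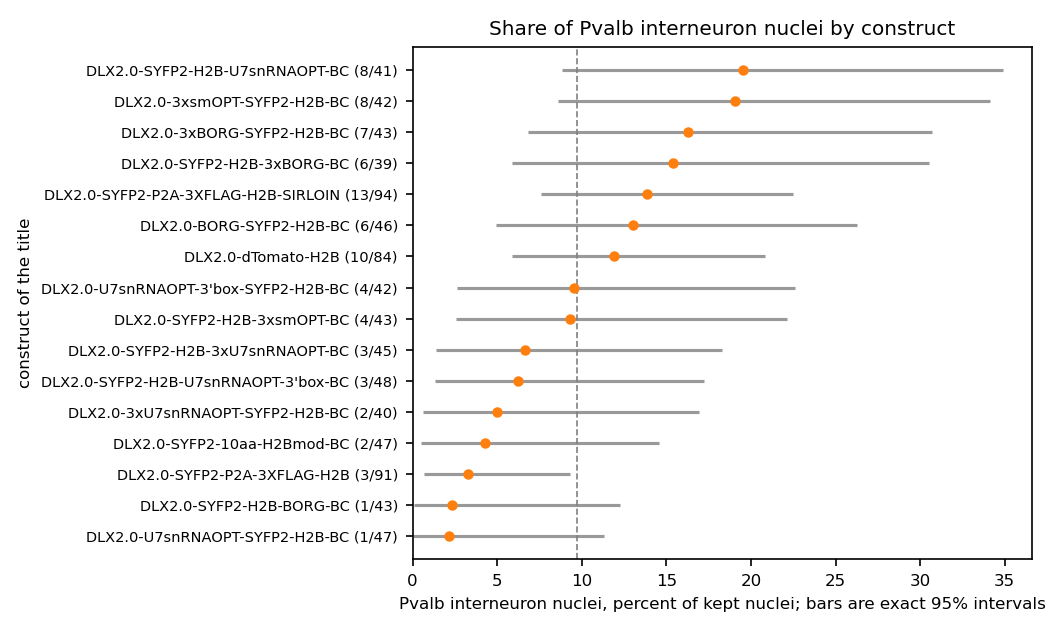
Percent of kept nuclei that are Pvalb interneuron nuclei in each of the 16 title constructs, with exact 95% binomial intervals that cover counting error only. The shares run from 2.13% to 19.5% around the overall 9.70%, shown dashed.

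The study placed 6 RNA elements before or after SYFP2-H2B, and the members were compared over that position. The share of Pvalb nuclei was 10.8 ± 6.54% (SD, n = 6 elements) before and 9.91 ± 6.39% after. The difference was -0.93 percentage points, higher after in 2 of 6 elements (exact two-sided permutation p = 0.8438, where the smallest p possible is 0.03125). In the 3 elements with at least 3 members on both sides, 0 of 7757 genes passed in edgeR (0.0%), 114 had an unadjusted p under 0.05, and DESeq2 called 200. The smallest p belonged to Tac1, higher after by 8.04 ± 1.75 (adjusted p = 0.58). Sema3a and Serinc1 were next in that direction and Malat1, Sipa1l1 and Copb2 in the other, each with an adjusted p of 0.999. A few members per sum limit what could be detected.

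Only 1 construct had enough members in both S40325 and S40327, so these library-name groups were not tested against each other. The summed members of S40317, S40325 and S40327 had 815, 672 and 453 CPM of Pvalb and 1802, 1097 and 866 CPM of Gad1. Gad2 had 721, 240 and 183 CPM, a wider range than Kcnc1, with 939, 1448 and 841. Gria4 was nearly level, at 762, 806 and 745 CPM.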

How the data were processed

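Libraries were made from single sorted nuclei with SMART-Seq v4 and Nextera XT, per the labels. The deposited table holds whole-number read counts per gene, not normalized and without molecular identifiers, so intervals and fold bounds cover counting error only. Per the submitters' processing notes, STAR 2.7.2a and mm10 were used, while the counting step is not given in the sources used here. Of 2501 columns, 904 matched a sample and the other 1597 were not used. Ensembl IDs were named from GENCODE M21 (32235 of 32285 matched). The members and the gene lists were chosen with earlier results of these data known.

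CPM was computed per nucleus (reads scaled to a sum of 1e6) for the gate. For tests, counts were summed per title construct and side, with at least 3 nuclei on each side. They were fitted with edgeR 4.0.16 (quasi-likelihood F test, TMM, filterByExpr, construct as a block, Benjamini-Hochberg adjustment over all genes tested) in R 4.3.3. The 10 gate genes were not tested between classes. The SE is the log2 difference divided by the square root of F. Named genes were, per comparison, the 10 largest called differences in each direction (5 for Adarb2) with at least 20 CPM on the higher side and the same direction in 3 of 4 constructs, the 3 smallest p in each list, and all subtype markers. Some of these are not reported here. DESeq2 1.42.0 and limma 3.58.1 were alternatives, as were RLE scaling, other filters, gates and groupings. The procedure was tested on simulated counts. Single values were tested by exact permutation over constructs (scipy 1.17.1). Doublets were not called, since each library came from 1 sorted nucleus.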

Additional observations from a re-analysis of the deposited data

Results flagged for a closer look

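The highest or lowest construct of a group was set against the others by Dixon's test in 96 groups of 7 summed values, from the comparisons with the Sst and Adarb2 interneuron nuclei, and in 2 groups of shares by element position. In 19 groups of summed values 1 construct stood apart at the 95% level. In 6 of these (Cacna2d3, Grin3a, Synpr and Sorcs3 in the Pvalb nuclei, Cdh7 and Kcnip2 in the Adarb2 nuclei) the other constructs were all at 0, so that any read sets a construct apart and the test says nothing. The other 13 came from 83 groups with more than 1 construct above 0, where chance gives about 1 in 20 groups, though values at 0 also occur there. All values are CPM of the summed nuclei, and no explanation was tested.

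In the Pvalb nuclei of the comparison with Sst nuclei, DLX2.0-SYFP2-H2B-U7snRNAOPT-BC stood apart for Trps1 (675) and Npy (516), and DLX2.0-SYFP2-H2B-3xU7snRNAOPT-BC for Ldhb, a lactate dehydrogenase subunit (970.0), and Grin3a (11.8). Serpini1 was at 1100.0 in the construct with U7snRNAOPT-3'box before SYFP2-H2B, above the other members but under every Sst sum. Cacna2d3 was at 39.7 in DLX2.0-SYFP2-P2A-3XFLAG-H2B, Synpr at 14.6 in DLX2.0-SYFP2-P2A-3XFLAG-H2B-SIRLOIN and Reln at 45.4 in DLX2.0-3xsmOPT-SYFP2-H2B-BC. In the Sst nuclei, Gabrd (442) and Trps1 (8.16) stood apart in DLX2.0-3xsmOPT-SYFP2-H2B-BC, and Tac1 (478) in DLX2.0-SYFP2-H2B-U7snRNAOPT-BC.

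In the Pvalb nuclei of the comparison with Adarb2 nuclei, DLX2.0-BORG-SYFP2-H2B-BC stood apart for Gad2 (1300.0) and Reln (63.6). Cacna2d1 was at 58.2 in DLX2.0-3xBORG-SYFP2-H2B-BC, Lamp5 at 138 in DLX2.0-SYFP2-P2A-3XFLAG-H2B and Sorcs3 at 2.38 in DLX2.0-SYFP2-P2A-3XFLAG-H2B-SIRLOIN. In the Adarb2 nuclei, Car4 was at 525 in the construct with U7snRNAOPT-3'box before SYFP2-H2B, Cdh7 at 22.9 in DLX2.0-SYFP2-H2B-3xU7snRNAOPT-BC and Kcnip2 at 55.6 in DLX2.0-3xBORG-SYFP2-H2B-BC.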

How the results depend on the processing

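No paired analysis was possible by the numbers in the titles, because they name single nuclei. The fits instead paired the sums of both sides within a construct. Equal numbers of nuclei, each library-name group on its own and the removal of nuclei over 0.3% mitochondrial reads were chosen after seeing the data. The cause of the changes was not tested.

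Against all other nuclei, the 1494 genes called became 4337 with DESeq2, 3092 without a filter on low counts, 2422 with the vector identifier as the sample, 515 without a construct term, 352 with at least 5 nuclei per side and 35 with equal numbers. Within S40317, S40325 and S40327 there were 28, 32 and 40, and without them 574, 516 and 50. Against Sst nuclei, 6 became 377 with DESeq2, 30 with limma, 32 without the filter, 14 by vector, 1 within S40325, 13 without S40325, 1 without S40327, and 4 to 11 with 1 construct left out. Against Adarb2 nuclei, 32 became 587 with DESeq2, 83 with limma, 70 without the filter, 21 with equal numbers, 17 with 3 of 5 markers, 16 without a construct term, 11 by vector, 12 within S40325, 7 without the nuclei of high mitochondrial reads, 7 without S40317, 35 without S40325, 6 without S40327 and 9 to 23 with 1 construct left out. For element position, 0 became 200 with DESeq2, 3 without the filter, 1 with RLE scaling and 0 to 3 with 1 element left out.

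The share of Pvalb nuclei was 6.23% with 3 of 5 markers. The difference by position turned to 1.29 points with 3 of 5 markers, 1.01 with Pvalb at 10 CPM or more and 2.06 without S40317. Single genes that changed sign were Atp5b (0.17), Gad2 (0.69) and Ptprz1 (0.76) with equal numbers; Cntnap3 (-0.0771) and Ncan (0.22) within S40325; Scn1a (-0.0621) and Slc38a1 (-0.48) within S40327; and, against Sst nuclei, Mef2c within S40325 and without S40327 (-0.33). Among the named genes over all alternatives, 945 of the values against all other nuclei kept their side of the threshold, 313 lost their call and 8 gained one; against Sst nuclei 480, 35 and 31; against Adarb2 nuclei 408, 106 and 27. Fits with at least 5 nuclei per side (Adarb2), within S40317 (Sst and Adarb2) and within S40327 (Adarb2) could not be made. Sums of 3 to 13 nuclei limit what could be detected for low genes.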

Other observations

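A few further genes separated the Pvalb interneuron nuclei from all other kept nuclei with all nuclei and with equal numbers of nuclei on each side. They were chosen after their values were seen. Kcnip1, a partner of A-type Kv4 potassium channels, had 96.1, 248 and 484 CPM in the lowest, median and highest of 12 constructs against 20.4, 84.8 and 172 (edgeR adjusted p = 0.0028, and 0.021 with equal numbers). Afap1, an actin filament protein, had 185, 272 and 663 CPM against 31.5, 64.5 and 105, with no overlap (2.57e-04 and 0.049). Plch2, a phospholipase C, had 33.6, 176 and 390 CPM against 10.1, 20.06 and 64.2 (0.0010 and 0.048). Nek7, which was also higher than in the Adarb2 nuclei, had 40.98, 211 and 342 CPM against 4.27, 24.8 and 57.3 (5.59e-04 and 0.015).

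Lower in the members were Nrgn, which encodes the calmodulin-binding neurogranin of principal neurons, with 0, 42.7 and 114 CPM against 199, 268 and 785 (edgeR adjusted p = 5.11e-04, and 0.043 with equal numbers), and Pcp4, another calmodulin regulator, with 0, 30.6 and 225 CPM against 237, 581 and 777 (2.40e-04 and 0.021). Neither overlapped. Arpp21, a cAMP-regulated phosphoprotein of striatum and cortex, was 51.96-fold lower in summed CPM (9.52e-06 and 6.2e-05), and Ptk2b, a calcium-activated kinase, 44.4-fold (4.14e-06 and 0.0042). The part of the cell mixture of the other nuclei in these values was not tested.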
